A study of Mus musculus with 4 samples.

Results

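The genes described here are 37 genes of glucose uptake, glycolysis and the cellular response to low oxygen, chosen by symbol, with no measured value in the rule, and all found among the 23240 gene rows of the table. The choice was made with earlier results of these data known, so the counts below do not come from a blind list. They comprise 21 genes of glucose transport, glycolysis and its control, 10 other target genes of the hypoxia-inducible factors (HIF), and 6 genes of oxygen sensing and of the factors themselves. RNA was sequenced in 4 mouse libraries, made from leukaemic bone marrow that the labels call RUNX1-FLT3ITD_AML on a B6 background, sorted as GFP+BFP+CD11b-Gr1-. The marrow had been kept for 22 h in SFEM medium and 4 cytokines (FLT3L, SCF, IL3, IL11), with 200 nM 4OHT (4-hydroxytamoxifen, an oestrogen receptor ligand often used to switch engineered proteins) in 1 arm and with an equal volume of its solvent ethanol (EtOH) in the other. Each arm held 1 Runx1 delta/delta library (replicate 1) and 1 Runx1 delta/+ library (replicate 2), so that both genotypes carry a Runx1 deletion and delta/+ cells keep an undeleted copy. The sources used here do not say which protein 4OHT acts on, how the deletion was made or whether the libraries of a genotype share a mouse. Genotype and replicate number are the same here, so genotype, animal and culture cannot be told apart.

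Glycolysis splits glucose into pyruvate, which lactate dehydrogenase turns into lactate for export. HIF is a pair of subunits, an oxygen-regulated alpha subunit (Hif1a or Epas1) and the constant partner Arnt. In oxygen, prolyl hydroxylases (Egln genes) mark the alpha subunit for destruction through Vhl, and without oxygen the pair binds DNA at the core sequence ACGTG or GCGTG and raises genes of glucose uptake, glycolysis, mitochondrial turnover and blood vessel growth. Blood stem cells in the oxygen-poor marrow are known to rely on glycolysis.

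Levels are in RPKM, that is, reads scaled by gene length and by the depth of the library. Depth ran from 33.7 to 39.4 M mapped reads, and 1 read in a gene of 1 kb was worth 0.0254 to 0.0297 RPKM. The 8 blast and progenitor markers summed to 32.6 RPKM in delta/delta EtOH, 132 in delta/delta 4OHT, 89.4 in delta/+ EtOH and 136 in delta/+ 4OHT. They were uneven, with Kit at 0.0781 to 1.61 RPKM, Cd34 at 0.0484 to 0.395, Cebpa at 1.08 to 10.3, Flt3 at 12.6 to 46.3 and Myb at 17.0 to 99.2. The 10 mature myeloid markers summed to 45.0, 50.5, 20.8 and 22.5 RPKM in the same order. Among them Itgam, which encodes the CD11b of the sort, stood at 0.168 to 0.358 RPKM, while S100a8 read 30.5 and 29.7 RPKM in delta/delta EtOH and 4OHT against 9.46 and 9.39 in delta/+. Summed over 22 erythroid marker genes, red cell RNA made up 13.6% of all RPKM in delta/delta EtOH, 1.29% in delta/delta 4OHT, 8.53% in delta/+ EtOH and 1.03% in delta/+ 4OHT. All 22 were lower in 4OHT in both genotypes, and 15 of 22 were higher in delta/delta in both treatments. The 9 megakaryocyte markers were likewise all lower in 4OHT in both genotypes, with sums of 85.2 to 232 RPKM. Of the 8 lymphoid markers 3 were at 0 in every library, and of the 6 stromal and endothelial markers only Pecam1 passed 1 RPKM. Runx1 itself stood at 568 RPKM in delta/delta EtOH, 380.5 in delta/delta 4OHT, 555 in delta/+ EtOH and 328 in delta/+ 4OHT, and 1 value per gene cannot show which exons were read, so it does not check the genotype labels. In bulk RNA, fewer cells of a type and less RNA per cell cannot be told apart.

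Promoter sequences are shown for 5 genes, picked after their levels were seen. Ankrd37, Bnip3, Pdk1 and Slc16a3 are 4 of the 9 genes that were lower both in delta/delta and with 4OHT. Egln3 had the largest fall with 4OHT of all 37. Each window runs from 250 bases before to 50 bases after a RefSeq gene start (build GRCm38.p6; the expression table is on mm 9, so no position was carried between them). They are chr8:45999801-46000100 on the minus strand for Ankrd37, chr7:138909457-138909756 on the minus strand for Bnip3, chr2:71872974-71873273 on the plus strand for Pdk1, chr11:120948817-120949116 on the plus strand for Slc16a3 and chr12:54203825-54204124 on the minus strand for Egln3. Capitals mark ACGTG or GCGTG, the forms of the HIF core, on either strand, so that CACGT and CACGC are the same cores read on the other strand.
Ankrd37: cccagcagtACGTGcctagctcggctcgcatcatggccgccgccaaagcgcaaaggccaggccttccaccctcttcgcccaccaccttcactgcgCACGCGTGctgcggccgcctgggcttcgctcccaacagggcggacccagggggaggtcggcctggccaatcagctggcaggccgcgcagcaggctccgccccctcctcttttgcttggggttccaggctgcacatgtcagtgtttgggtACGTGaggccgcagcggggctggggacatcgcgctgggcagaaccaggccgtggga
Bnip3: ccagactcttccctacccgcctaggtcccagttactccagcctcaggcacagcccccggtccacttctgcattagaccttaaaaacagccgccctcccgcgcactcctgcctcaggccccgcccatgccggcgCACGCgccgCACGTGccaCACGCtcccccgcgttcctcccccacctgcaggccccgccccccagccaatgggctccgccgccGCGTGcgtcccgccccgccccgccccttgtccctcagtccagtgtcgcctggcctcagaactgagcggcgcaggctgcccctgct
Pdk1: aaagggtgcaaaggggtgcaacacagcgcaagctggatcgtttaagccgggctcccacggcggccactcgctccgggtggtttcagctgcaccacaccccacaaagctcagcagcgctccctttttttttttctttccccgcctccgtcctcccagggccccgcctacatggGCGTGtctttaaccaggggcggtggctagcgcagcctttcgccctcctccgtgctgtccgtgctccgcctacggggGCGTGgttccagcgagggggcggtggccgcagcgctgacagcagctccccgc
Slc16a3: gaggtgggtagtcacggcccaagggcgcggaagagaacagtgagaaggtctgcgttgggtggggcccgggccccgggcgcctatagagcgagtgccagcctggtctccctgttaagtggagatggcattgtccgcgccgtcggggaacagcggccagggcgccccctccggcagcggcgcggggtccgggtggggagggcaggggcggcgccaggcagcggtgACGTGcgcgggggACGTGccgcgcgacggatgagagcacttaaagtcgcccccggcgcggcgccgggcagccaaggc
Egln3: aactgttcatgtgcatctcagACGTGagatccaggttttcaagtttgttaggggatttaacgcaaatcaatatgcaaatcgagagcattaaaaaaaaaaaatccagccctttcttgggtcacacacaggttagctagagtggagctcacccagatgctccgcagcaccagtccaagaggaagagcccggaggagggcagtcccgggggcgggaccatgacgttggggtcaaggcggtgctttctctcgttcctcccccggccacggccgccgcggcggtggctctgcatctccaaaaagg
The Ankrd37 window holds 2 ACGTG and 2 GCGTG, Bnip3 2 and 3, Pdk1 0 and 2 in the window shown (a second Pdk1 window in the table, chr2:71874654-71874953, holds neither), Slc16a3 2 and 0, and Egln3 1 and 0. A palindromic CACGTG, as in Bnip3, counts as 2 overlapping ACGTG. Of the genes lower in both contrasts but not shown, Aldoa, Pkm2 and Kdm3a each have a window with neither core. Among the 33 of 37 genes with a promoter entry (Slc2a3, Bnip3l, Ndrg1 and Epas1 have none in the table), 23 hold ACGTG in a window (69.7%), 23 hold GCGTG (69.7%) and 30 hold at least 1 of them (90.9%). Among all 27025 genes of the promoter table the shares were 21.8%, 35.2% and 46.7%. Counted by window, 53.1%, 57.1% and 77.6% of the 49 member windows held them, against 19.6%, 32.4% and 43.8% of 32851. These matches describe letters, not binding. Neither GC content nor expression was matched between these genes and all genes. The 37 genes were chosen in part as HIF targets, so a larger share with HIF cores may follow from the choice and tests nothing.

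Gapdh, which encodes the enzyme that oxidises glyceraldehyde 3-phosphate, was the highest of the 37 in every library, at 3292 RPKM in delta/delta EtOH, 3712 in delta/delta 4OHT, 5102 in delta/+ EtOH and 4517 in delta/+ 4OHT. Added together, the 21 glycolytic genes made up 1.25% of all RPKM in delta/delta EtOH, 1.42% in delta/delta 4OHT, 2.80% in delta/+ EtOH and 2.42% in delta/+ 4OHT. Thus the delta/+ libraries carried the larger share in both treatments. The 10 other targets summed to 196, 166, 432 and 284 RPKM in the same order of libraries. Gapdh, Pgk1, Pgam1, Eno1, Aldoa, Tpi1 and Ldha have processed copies elsewhere in the genome, and the sources used here do not say how reads matching several places were counted, so their levels carry that uncertainty.

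**Figure D1:**
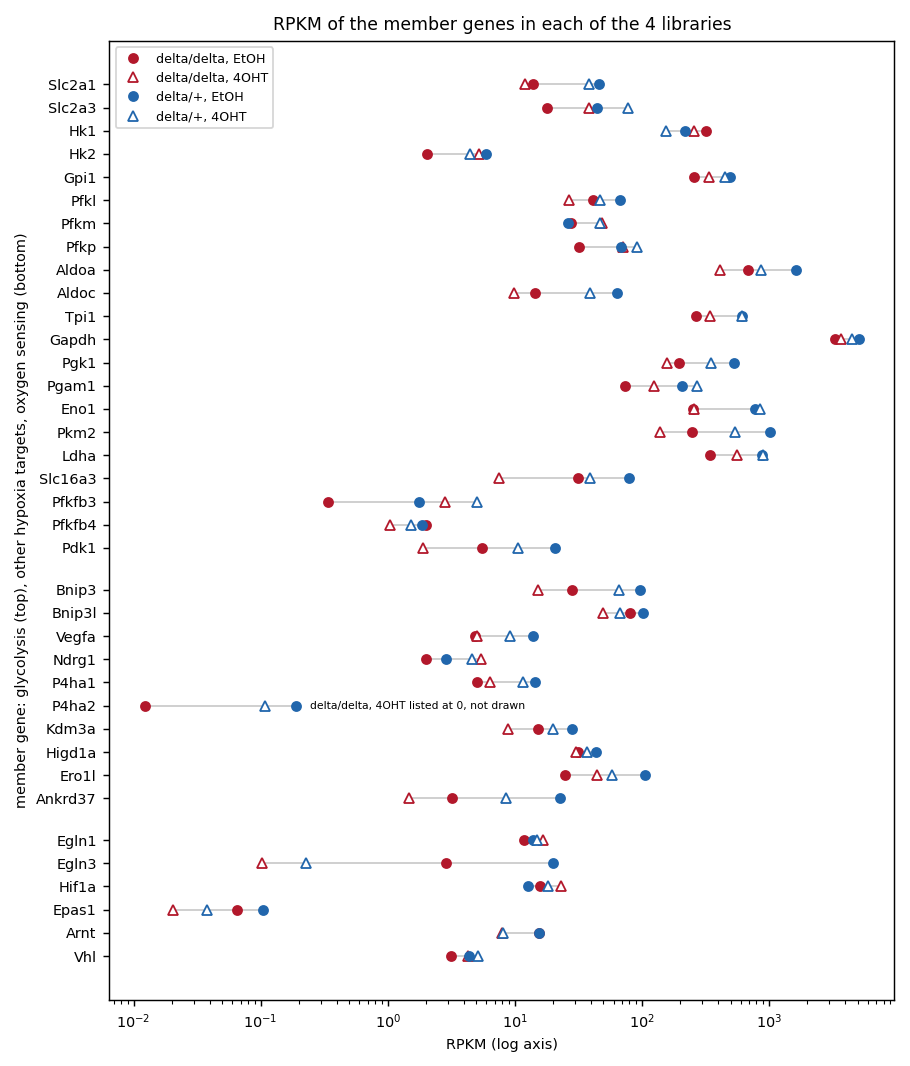
RPKM on a log axis for each of the 37 genes in the 4 libraries (circles EtOH, triangles 4OHT, red Runx1 delta/delta, blue Runx1 delta/+; 1 symbol is 1 library, with no replicate of it). For Pkm2, Eno1, Aldoc, Bnip3 and Ankrd37 both blue symbols lie to the right of both red ones, and Egln3 has both triangles below 0.3 RPKM.

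Most glycolytic enzymes and 5 other HIF targets were lower in delta/delta than in delta/+ libraries. The difference was tested with limma on log2(RPKM + 1), with genotype and treatment as terms, over the 9595 genes that averaged 1 RPKM or more. Of the 35 genes of the set that passed that filter, 19 were lower in delta/delta at an adjusted p under 0.05 (54.3%), where the background over all genes tested was 6.91%. Only Hk1 was higher (1 of 35, 2.86%, against a background of 4.68%), and 15 did not pass the test. The median difference was −1.02 on the log2 scale over the 35 genes and −0.03 over all genes tested. It was −1.20 between the EtOH libraries and −0.68 between the 4OHT libraries, with 31 and 29 of the 35 genes below 0. Of all 9595 genes tested, 5386 and 4832 were below 0. The delta/delta values did not overlap the delta/+ values in 24 of the 35 genes (68.6%, against a background of 38.4%). P4ha2 and Epas1 fell under the filter and were not tested.

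Among the 21 genes of glucose transport and glycolysis, 14 were lower in delta/delta (66.7%, against a background of 6.91%), 1 was higher (4.76%, against 4.68%) and 6 did not pass. At the entry to the pathway, Slc2a1, the widespread glucose transporter GLUT1, read 14.0 RPKM in delta/delta EtOH and 12.1 in delta/delta 4OHT, against 45.7 in delta/+ EtOH and 38.4 in delta/+ 4OHT. Both delta/delta libraries lay below both delta/+ libraries, and the log2 difference was −1.62 ± 0.13 (SE; limma adjusted p = 0.0126). Slc2a3, the high-affinity transporter GLUT3, read 17.8 and 38.5 RPKM in delta/delta EtOH and 4OHT, and 44.7 and 77.5 in delta/+. It was lower within each treatment (log2 difference −1.14 ± 0.15, limma adjusted p = 0.0216), and the genotypes did not overlap.

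Of the hexokinases, which trap glucose in the cell, Hk1 went the other way. It read 319 and 257 RPKM in delta/delta EtOH and 4OHT, against 219.8 and 154 in delta/+. Its log2 difference was 0.63 ± 0.12 (limma adjusted p = 0.0385), higher in delta/delta, without overlap of the genotypes. Hk2, the inducible form and a HIF target, was near 5 RPKM in 3 libraries (4.48 to 5.96) and at 2.04 in delta/delta EtOH, with no call for either contrast. Gpi1, which makes fructose 6-phosphate, read 258 and 339.9 RPKM in delta/delta and 498 and 454 in delta/+ (log2 difference −0.68 ± 0.16, limma adjusted p = 0.0532).

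The phosphofructokinase genes, whose products commit sugar to glycolysis, differed among themselves. Pfkl, the liver type, read 41.0 and 26.9 RPKM in delta/delta EtOH and 4OHT and 67.7 and 47.2 in delta/+, lower in delta/delta with a log2 difference of −0.75 ± 0.13 (limma adjusted p = 0.0334). Pfkm, the muscle type, had nearly equal values in the genotypes, with 27.9 against 26.1 RPKM in EtOH and 48.3 against 46.7 in 4OHT (log2 difference 0.07 ± 0.13, limma adjusted p = 0.739). Pfkp, the platelet type, read 32.1 and 70.7 RPKM in delta/delta and 69.0 and 92.1 in delta/+ (log2 difference −0.73 ± 0.20, limma adjusted p = 0.0724).

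From aldolase to lactate the same direction held, and Pkm2 and Aldoc had the largest differences of the pathway. Aldoa, the main aldolase with 95.7% to 97.9% of aldolase RPKM, read 692 and 411 RPKM in delta/delta EtOH and 4OHT against 1639 and 866 in delta/+, a log2 difference of −1.16 ± 0.11 (limma adjusted p = 0.0126). Aldoc, the brain-type aldolase, read 14.5 and 9.90 RPKM in delta/delta and 63.3 and 39.0 in delta/+ (−1.96 ± 0.14, limma adjusted p = 0.0126). Both delta/+ libraries were above both delta/delta libraries for each aldolase. Tpi1, which interconverts the triose phosphates, read 267 and 342 RPKM against 617 and 616 (−1.03 ± 0.13, limma adjusted p = 0.0220). Pgk1, the first ATP-yielding enzyme, read 195 and 159 RPKM against 529.7 and 350.5 (−1.29 ± 0.13, limma adjusted p = 0.0148). Pgam1, the phosphoglycerate mutase, read 73.5 and 125 RPKM against 209 and 269.8, a difference of −1.30 ± 0.15 (limma adjusted p = 0.0176). In all 3 genes the genotypes did not overlap.

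Eno1, the main enolase, was nearly level between treatments and wide apart between genotypes, with 255 and 259.5 RPKM in delta/delta EtOH and 4OHT and 778 and 850.2 in delta/+ (log2 difference −1.66 ± 0.11, limma adjusted p = 0.0126). Pkm2, an older symbol of the pyruvate kinase gene Pkm whose splice forms the table does not separate, read 247 and 139.5 RPKM in delta/delta and 1024 and 541 in delta/+ (−2.0 ± 0.11, limma adjusted p = 0.0108). In each treatment delta/+ held 3.05 to 4.14 times the RPKM of delta/delta for these genes. Ldha, which makes lactate from pyruvate, read 344 and 563 RPKM against 882 and 904 (−1.02 ± 0.18, limma adjusted p = 0.0334). Slc16a3, the lactate exporter MCT4, read 31.4 and 7.51 RPKM against 80.0 and 39.0 (−1.78 ± 0.24, limma adjusted p = 0.0228). Gapdh, which lies between Tpi1 and Pgk1 in the pathway, had a smaller difference that missed the threshold (−0.46 ± 0.11, limma adjusted p = 0.0570), though both delta/delta values were below both delta/+ values.

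**Figure D2:**
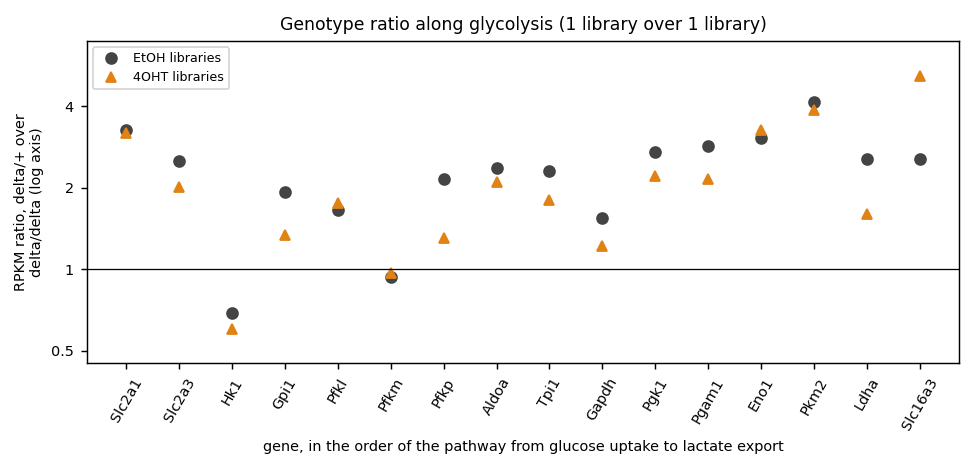
Ratio of RPKM in delta/+ over delta/delta (log axis) for 16 genes in pathway order, circles for the EtOH libraries and triangles for the 4OHT libraries, each ratio from 1 library over 1. Ratios were 2 or more at both treatments for Slc2a1, Slc2a3, Aldoa, Pgk1, Pgam1, Eno1, Pkm2 and Slc16a3, Pfkm lay near 1 (0.936 and 0.966) and Hk1 below it (0.690 and 0.600).

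Of the enzymes that steer glycolysis, Pdk1 and Pfkfb3 were also lower. Pdk1 encodes a kinase that shuts off pyruvate dehydrogenase and so holds back the oxidation of pyruvate in mitochondria. It read 5.53 and 1.91 RPKM in delta/delta EtOH and 4OHT and 20.7 and 10.7 in delta/+ (−1.87 ± 0.15, limma adjusted p = 0.0126). Pfkfb3, which makes the phosphofructokinase activator fructose 2,6-bisphosphate, was low, with 0.339 and 2.84 RPKM against 1.77 and 5.08 (−0.85 ± 0.19, limma adjusted p = 0.0479). Its genotypes overlapped across treatments, and the call was lost with 0.1 RPKM added in place of 1. Its relative Pfkfb4, with 1.05 to 2.0 RPKM, had no call (−0.12 ± 0.19, limma adjusted p = 0.699). Of the relatives outside the set, Pdk2 leaned the other way without a call (0.78 ± 0.20, limma adjusted p = 0.0641). Pdk3, Pfkfb1 and Pfkfb2 had log2 differences below 0 and no call.

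Of the 9 tested HIF targets outside glycolysis, 5 were lower in delta/delta (55.6%, against a background of 6.91%). All 9 had a log2 difference below 0, as did 5116 of all 9595 genes tested. Ankrd37, an ankyrin repeat gene known as a HIF target, had the largest genotype difference of the 35, with 3.20 and 1.48 RPKM in delta/delta EtOH and 4OHT and 22.9 and 8.62 in delta/+ (−2.23 ± 0.19, limma adjusted p = 0.0126). Bnip3, a receptor that sends mitochondria to autophagy, read 28.3 and 15.4 RPKM against 97.1 and 66.2 (−1.89 ± 0.15, limma adjusted p = 0.0126). Its relative Bnip3l, which clears mitochondria from maturing red cells, differed less, with 81.0 and 49.2 RPKM against 103 and 68.0 (−0.40 ± 0.13, limma adjusted p = 0.104). Kdm3a, a histone H3 lysine demethylase, read 15.3 and 8.86 RPKM against 28.2 and 19.9 (−0.97 ± 0.14, limma adjusted p = 0.0274).

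Vegfa, the vessel growth factor, read 4.84 and 5.09 RPKM in delta/delta EtOH and 4OHT against 13.9 and 9.24 in delta/+ (−1.05 ± 0.19, limma adjusted p = 0.0343). P4ha1, a catalytic subunit of collagen prolyl hydroxylase, read 5.09 and 6.42 RPKM against 14.4 and 11.6 (−1.05 ± 0.19, limma adjusted p = 0.0334). The genotypes did not overlap for either gene. Ero1l, an oxidase of protein folding in the endoplasmic reticulum, had the 4 values 24.8, 44.1, 106 and 58.3 RPKM in the order delta/delta EtOH, delta/delta 4OHT, delta/+ EtOH and delta/+ 4OHT, and missed the threshold (−1.22 ± 0.38, limma adjusted p = 0.0955). Higd1a, a mitochondrial inner membrane protein, read 30.5 to 43.6 RPKM and Ndrg1, a stress-induced gene, 2.0 to 5.40 RPKM, with no genotype call. P4ha2 was barely read, with 1 and 0 reads in delta/delta EtOH and 4OHT and 15 and 10 in delta/+. The value at 0 allows up to 0.0348 RPKM at a floor of 3 reads, which covers counting error only.

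Of the 5 tested genes of oxygen sensing or of the factors themselves, 0 passed the genotype test by limma, and 0 had an unadjusted p under 0.05. Over all 9595 genes tested, 1112 passed and 3114 had an unadjusted p under 0.05. Hif1a read 15.9 and 23.3 RPKM in delta/delta EtOH and 4OHT and 12.8 and 18.2 in delta/+ (0.32 ± 0.13, limma adjusted p = 0.175), with no genotype call. These are transcript levels, and the alpha protein was not measured. The partner gene Arnt read 15.5 and 7.92 RPKM against 15.6 and 8.07 (−0.02 ± 0.14, limma adjusted p = 0.943). Epas1, the HIF-2 alpha subunit, was barely read, with 4 to 19 reads a library, and Hif1a made up at least 99.2% of their sum. The ubiquitin ligase subunit Vhl read 3.13 to 5.14 RPKM and the hydroxylase Egln1 11.9 to 16.8 RPKM, without a call. Egln3, a hydroxylase that is itself a HIF target, read 2.91 RPKM in delta/delta EtOH and 20.0 in delta/+ EtOH, and 0.102 and 0.228 in 4OHT (−1.29 ± 0.52, limma adjusted p = 0.157).

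These genotype calls rest on 1 replicate number per genotype and on the low-value filter. With all 17213 genes above 0 in the fit, limma called no gene for genotype (3906 at an unadjusted p under 0.05), and the 20 called members had adjusted p = 0.0585 to 0.116; with treatment dropped from the model 0 were called either (880 unadjusted), nor with any 1 library left out (169 to 627 unadjusted). Erythroid marker RNA was also larger in delta/delta, 13.6% against 8.53% in EtOH and 1.29% against 1.03% in 4OHT. The sum of mature myeloid markers was larger in delta/delta in both treatments, with 6 of the 10 genes higher in both. The sum of blast markers was smaller in delta/delta, but in 4OHT the sums were close (132 against 136 RPKM). There Flt3 and Ptprc were lower in delta/delta, while Kit, Cd34, Myb, Mpo, Elane and Cebpa were higher. The part of these cell markers in the result was not tested. The ratio of delta/+ over delta/delta RPKM in EtOH and in 4OHT was 2.56 and 1.61 for Ldha, 4.25 and 1.32 for Ero1l, 3.05 and 3.28 for Eno1, and 2.55 and 5.19 for Slc16a3, and whether it differed between treatments was not tested.

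**Figure D3:**
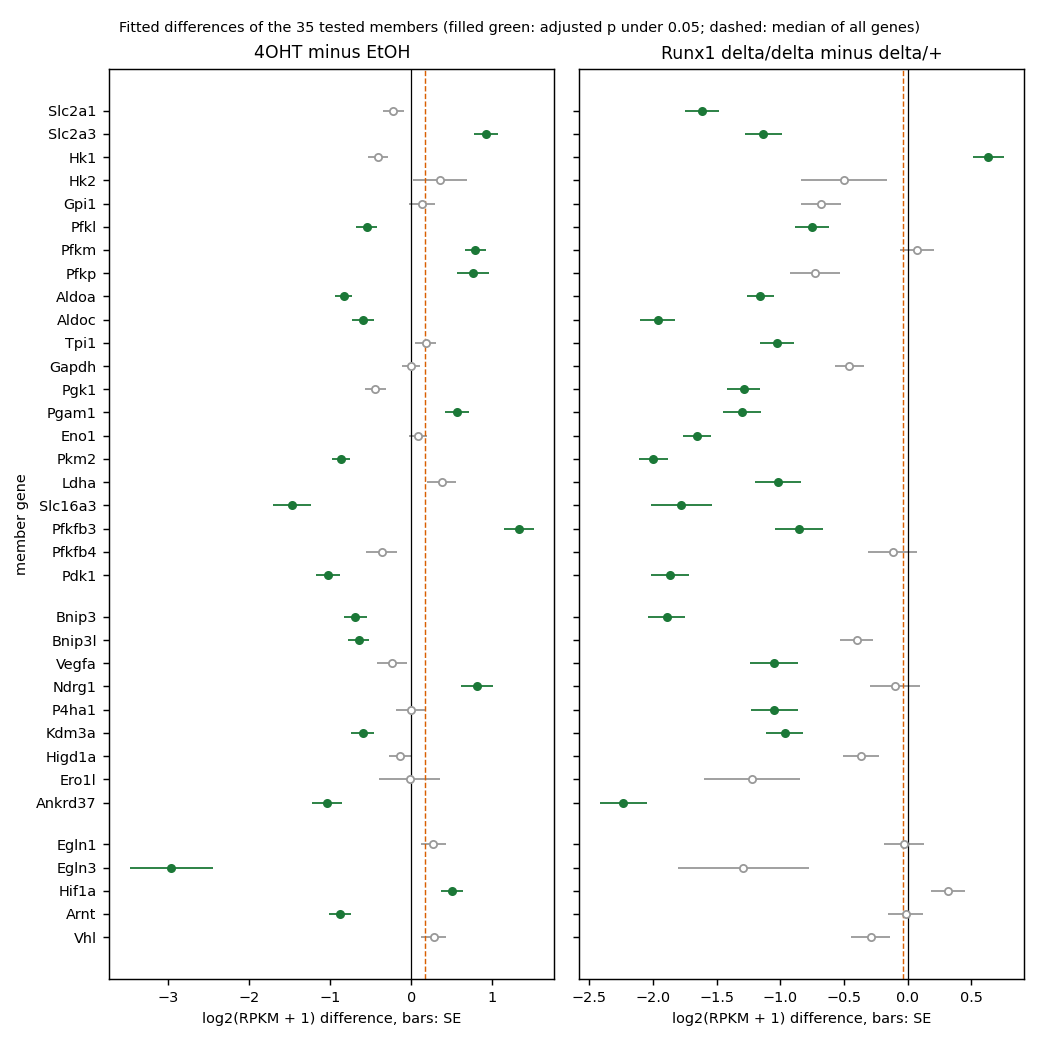
Fitted log2(RPKM + 1) differences with their SE for the 35 tested genes, 4OHT minus EtOH on the left and Runx1 delta/delta minus delta/+ on the right, in the order glycolysis, other targets, oxygen sensing; filled green symbols passed an adjusted p under 0.05 and the dashed line is the median of all genes (0.16 and −0.03). On the right 19 filled symbols lie left of 0 and 1, Hk1, right of it, while on the left 7 lie right and 12 left.

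With 4OHT some of the same genes fell and some rose, and the share that rose lay near the background. By limma with genotype in the model, 12 of 35 fell (34.3%, against a background of 10.2%), 7 rose (20%, against a background of 22.2%) and 16 did not pass. Their median log2 difference was −0.14, while that of all genes tested was 0.16. Among all genes 2130 rose and 983 fell, and with median-ratio scaling, which puts the median of all genes at −0.04, the split was 1441 to 1666. The set's own split became 5 to 14 under that scaling, in which Pgam1 and Hif1a lost their calls. For genotype that scaling turned 449 higher and 663 lower into 984 and 810, and the set into 1 and 22.

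The falls included the lactate exporter, the highest aldolase, pyruvate kinase and the HIF hydroxylase Egln3. Egln3 fell the most, from 2.91 to 0.102 RPKM (269 to 10 reads) in delta/delta and from 20.0 to 0.228 RPKM (1802 to 24 reads) in delta/+, which is 28.6-fold and 87.8-fold lower. The log2 difference was −2.96 ± 0.52 (limma adjusted p = 0.0132), and the pseudocount of 1 compresses it. Slc16a3 fell from 31.4 to 7.51 RPKM in delta/delta and from 80.0 to 39.0 in delta/+, a log2 difference of −1.47 ± 0.24 (limma adjusted p = 0.0108). Of the genes lower with 4OHT it held its call when the delta/+ 4OHT library was left out, the only one of the set to do so in any such fit. Ankrd37 (−1.04 ± 0.19, limma adjusted p = 0.0139) and Pdk1 (−1.03 ± 0.15, limma adjusted p = 0.0086) fell in both genotypes as well.

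Aldoa and Pkm2, the strongly expressed glycolytic enzymes that fell, lost nearly equal proportions in the genotypes. Aldoa stood 1.68-fold lower with 4OHT in delta/delta and 1.89-fold lower in delta/+ (log2 difference −0.83 ± 0.11, limma adjusted p = 0.0068), and Pkm2 1.77-fold and 1.89-fold lower (−0.87 ± 0.11, limma adjusted p = 0.0068). Aldoc and Pfkl fell by less, with log2 differences of −0.60 ± 0.14 (limma adjusted p = 0.0282) and −0.55 ± 0.13 (limma adjusted p = 0.0305). Bnip3 (−0.69 ± 0.15, limma adjusted p = 0.0212), Bnip3l (−0.65 ± 0.13, limma adjusted p = 0.0184) and Kdm3a (−0.60 ± 0.14, limma adjusted p = 0.0302) also fell. So did Arnt, the HIF beta subunit, by nearly the same proportion in both genotypes, 1.95-fold in delta/delta and 1.93-fold in delta/+ (−0.88 ± 0.14, limma adjusted p = 0.0098).

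The rises included a glucose transporter and 3 genes of the phosphofructokinase step. Pfkfb3 rose from 62 to 552 reads in delta/delta and from 315 to 1057 in delta/+, 8.38-fold and 2.87-fold in RPKM (log2 difference 1.33 ± 0.19, limma adjusted p = 0.0080). Slc2a3 rose 2.16-fold and 1.73-fold (0.92 ± 0.15, limma adjusted p = 0.0103), while Slc2a1 stayed within 1.19-fold in either genotype (−0.22 ± 0.13, limma adjusted p = 0.257). Pfkm rose 1.73-fold and 1.79-fold (0.79 ± 0.13, limma adjusted p = 0.0121) and Pfkp 2.20-fold and 1.34-fold (0.76 ± 0.20, limma adjusted p = 0.0378). Both phosphofructokinases thus rose as Pfkl fell.

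Pgam1 rose 1.70-fold and 1.29-fold (0.56 ± 0.15, limma adjusted p = 0.0386). Ndrg1 rose 2.70-fold and 1.60-fold (0.81 ± 0.20, limma adjusted p = 0.0307) and was the only one of the 9 tested targets outside glycolysis in the set that rose. Hif1a rose 1.46-fold and 1.43-fold (0.50 ± 0.13, limma adjusted p = 0.0410), so within the HIF pair, at the authors' scaling, the alpha transcript rose and the beta transcript, Arnt, fell. Hk1 (−0.41 ± 0.12, limma adjusted p = 0.0555) and Pgk1 (−0.44 ± 0.13, limma adjusted p = 0.0522) were below EtOH in both genotypes and just missed the threshold. Gapdh (−0.00 ± 0.11, limma adjusted p = 0.994), Eno1 (0.08 ± 0.11, limma adjusted p = 0.619) and Tpi1 (0.18 ± 0.13, limma adjusted p = 0.352) had no call.

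Set side by side, 9 genes were lower both in delta/delta and with 4OHT: Pfkl, Aldoa, Aldoc, Pkm2, Slc16a3, Pdk1, Bnip3, Kdm3a and Ankrd37. That is 25.7% of the 35, where 0.542% of all genes tested were lower in both. Slc2a3, Pgam1 and Pfkfb3 were lower in delta/delta and rose with 4OHT (8.57%, against 1.66% of all genes tested). Slc2a1, Tpi1, Pgk1, Eno1, Ldha, Vegfa and P4ha1 were lower in delta/delta with no 4OHT call (20%, against 4.71%). Both contrasts come from the same 4 libraries. The EtOH values did not overlap the 4OHT values in 10 of the 35 genes (28.6%, against a background of 55.4%), which were Egln3, Bnip3l, Arnt, Pfkfb3, Pfkm, Pfkp, Ndrg1 and Hif1a among those called for 4OHT, and Pfkfb4 and Egln1 among those not called. Erythroid marker RNA dropped from 13.6% to 1.29% and from 8.53% to 1.03% of RPKM with 4OHT beside all these changes. The sum of blast markers went from 32.6 to 132 RPKM in delta/delta, where each marker was higher, and from 89.4 to 136 in delta/+. In delta/+ Myb alone went from 37.5 to 84.5 RPKM. Kit, Mpo, Cebpa and Ptprc were also higher there with 4OHT, while Flt3 (46.3 to 39.7 RPKM), Cd34 and Elane were lower. The part of these cell markers in the changes was not tested. With no replicate block, that is without genotype in the model, limma called 0 of the 35 genes for 4OHT (6 at an unadjusted p under 0.05) and 233 genes in all. Without the low-value filter Pfkp, Pgam1, Ndrg1, Kdm3a, Ankrd37 and Hif1a lost their 4OHT calls.

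The makeup of several isoenzyme groups differed with 4OHT, given here as shares of the group's summed RPKM with no test. Pfkl went from 40.6% to 18.4% of phosphofructokinase RPKM in delta/delta and from 41.6% to 25.4% in delta/+. Pfkp went from 31.8% to 48.4% and from 42.4% to 49.5%, and was the largest form in both 4OHT libraries. Among glucose transporters Slc2a3 went from 53.8% to 70.4% and from 49.0% to 62.6%, as Slc2a1 went from 42.1% to 22.1% and from 50.1% to 31.0%. Of the lactate carriers, Slc16a3 went from 53.1% to 24.3% and from 82.0% to 61.9% of its sum with Slc16a1 (MCT1), so that Slc16a1 was the larger in delta/delta 4OHT only. Slc16a1 itself read 27.7 and 23.3 RPKM in delta/delta EtOH and 4OHT and 17.6 and 24.0 in delta/+. Pfkfb3 went from 3.99% to 35.2% and from 15.3% to 32.4% of the PFKFB group. Pdk3, at 60.1% to 84.4%, was the main pyruvate dehydrogenase kinase in every library, and Pdk1 reached 28.6% in delta/+ EtOH and 3.67% in delta/delta 4OHT. Egln3 made up 37.3% of HIF prolyl hydroxylase RPKM in delta/+ EtOH and 6.50% in delta/delta EtOH, and under 1% in both 4OHT libraries.

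**Figure D4:**
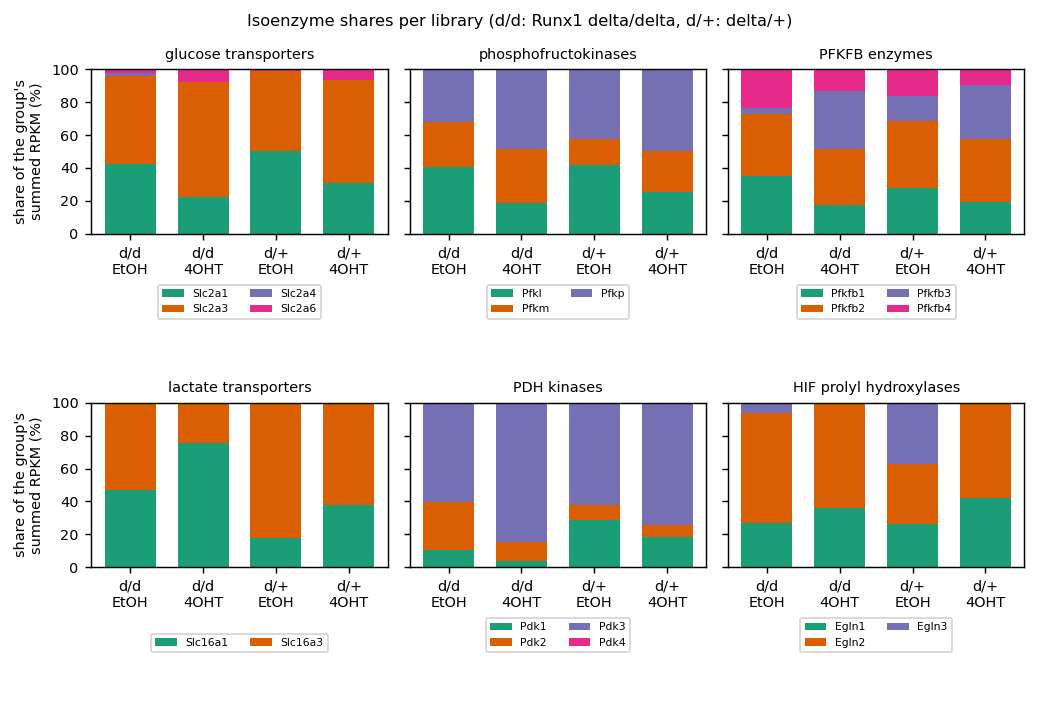
Shares of summed RPKM (%) within 6 groups of related genes, 1 bar per library. The Pfkl, Slc2a1 and Slc16a3 parts are smaller and the Pfkp, Slc2a3 and Pfkfb3 parts larger in the 4OHT bar than in the EtOH bar of each genotype, and Egln3 is visible only in the EtOH bars.

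Related genes outside the set were counted in the same fit. Of 39 tested genes of glycolysis, the pentose phosphate path and pyruvate use, 1 was lower in delta/delta (Pgm2, a phosphoglucomutase, −1.20 ± 0.27, limma adjusted p = 0.0494) and 1 higher (Ldhb, the other lactate dehydrogenase, 1.56 ± 0.29, limma adjusted p = 0.0356), each 2.56% of the list. Over all genes tested, 6.91% were lower and 4.68% higher. Ldhb read 1.12 and 4.16 RPKM in delta/delta EtOH and 4OHT and 0.0230 and 0.236 in delta/+, at most 0.733% of the summed Ldha and Ldhb. With 4OHT 15 of the 39 rose (38.5%, against 22.2% of all genes tested) and 3 fell (7.69%, against 10.2%). The falls were Pck2, the mitochondrial enzyme that makes phosphoenolpyruvate (47.1 to 17.7 RPKM in delta/delta and 34.7 to 13.5 in delta/+, −1.33 ± 0.13, limma adjusted p = 0.0044), Taldo1 and Pdk2. Slc2a6, a further transporter of the glucose carrier family, rose to 4.08 RPKM from 0.650 in delta/delta and to 7.89 from 0.681 in delta/+ (2.01 ± 0.24, limma adjusted p = 0.0059). Gpd2, Got1, Dlat, Pgm1 and Pdp2 were among the other rises, with log2 differences of 0.74 to 1.0.

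Of 42 tested HIF targets and regulators outside the set, 5 were lower (11.9%) and 2 higher (4.76%) in delta/delta, against 6.91% and 4.68% of all genes tested. The lower ones included Hmox1, the haem oxygenase, with 3.54 and 9.52 RPKM in delta/delta EtOH and 4OHT and 14.9 and 24.5 in delta/+ (−1.54 ± 0.18, limma adjusted p = 0.0176), and Ak4, a mitochondrial adenylate kinase (−1.47 ± 0.21, limma adjusted p = 0.0266). Cul2, a scaffold of the Vhl ligase, was lower too (−0.77 ± 0.15, limma adjusted p = 0.0369), and Cxcr4, the marrow homing receptor, was higher (0.91 ± 0.14, limma adjusted p = 0.0290). With 4OHT 7 rose (16.7%) and 6 fell (14.3%), against 22.2% and 10.2% of all genes tested, so these shares lie near the background. Among those that fell were Mxi1, Bhlhe40, Ccng2, Dusp1 and Tfrc, the transferrin receptor that is also on the erythroid list. The metallothioneins Mt1 and Mt2 rose, with log2 differences of 2.14 and 2.33.

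The authors' deposited table also holds a Z-test (Kal's) for each replicate number, which compares 1 library with 1. Of the 37 genes in the authors' deposited table, 9 had a corrected p under 0.05 in delta/delta, against a background of 3.98% of rows, and 7 in delta/+, against a background of 1.91%. That background covers all 23240 rows, of which only 13451 to 16105 were above 0 in a library. All 37 genes had reads and some were among the most read, so the comparison is not like for like. In delta/delta the authors' deposited table has Gpi1, Pfkp, Tpi1, Gapdh, Pgam1 and Ldha as higher and Aldoa, Pkm2 and Slc16a3 as lower. In delta/+ all 7 are lower in the authors' deposited table, namely Aldoa, Gapdh, Pgk1, Pkm2, Slc16a3, Egln3 and Ero1l. Aldoa, Pkm2 and Slc16a3 passed in both, and Gapdh passed in both with opposite directions. Such a test measures the reads of those libraries and not the spread between cultures.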

How the data were processed

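Total RNA of sorted mouse cells was sequenced in 4 libraries; per the labels' protocols, a TruSeq or a NEBNext kit was used, and the labels do not say which for which library. Per the file headers, the authors deposited RPKM for 23240 gene rows with replicates kept apart, and a corrected p-value of Kal's Z-test per replicate number. The submitters' processing notes name the build mm 9; aligner, counting rule, annotation and strandedness: not given in the sources used here.

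Both the 37 genes and the further lists were chosen with earlier results of these data known. Depth was inferred as the mapped total shared by the largest number of low genes (375 to 947 a library), given GENCODE transcript lengths. It came to 34.6, 36.7, 33.7 and 39.4 M mapped reads for delta/delta EtOH and 4OHT and delta/+ EtOH and 4OHT. With these totals, whole reads were recovered for all 37 genes (tolerance 0.001 reads), at the smallest gene length that made all values whole. Deeper libraries have less counting error. The planned test allowed for counts; as the values are RPKM, limma 3.58.1 in R 4.3.3 was run on log2(RPKM + 1) for the 9595 genes averaging 1 RPKM or more, with terms for treatment and genotype, a trended prior and two-sided tests adjusted by Benjamini-Hochberg at 0.05. Fold changes on this scale understate those of low genes. Residual degrees of freedom were 1, plus 4.37 from the prior. That 1 residual is the difference between the genotypes' responses to 4OHT, together with any technical spread. Genes with unlike responses, such as Ero1l, therefore had a larger SE in both contrasts. The p-values do not measure the spread between animals or cultures. Libraries of a number share the genotype, which the labels give as a factor, so the number enters as a block. The deviations of these libraries from the group means correlated at 0.664 across genes. A difference between the genotypes' responses has 0 residual degrees of freedom in these data and was not tested. Scripts were tested on simulated data. Named genes were all 37, and of each further list the called genes with the smallest p, at most 8 for 4OHT and 4 for genotype. Not every gene so chosen is reported here. Tables and figures used Python 3.11.15. Alternatives were another pseudocount, no filter, median-ratio scaling, 1 term left out, and each library left out.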

Additional observations from a re-analysis of the deposited data

Results flagged for a closer look

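In 7 of the 35 tested genes (20%) the difference between 4OHT and EtOH had opposite signs in the 2 genotypes, where 18.7% of all genes tested did. The gaps between the genotypes' log2 differences, which were not tested, were 1.65 for Ero1l (0.80 in delta/delta and −0.84 in delta/+), 1.39 for Hk2 (1.05 and −0.34), 0.60 for Vegfa (0.06 and −0.54), 0.58 for P4ha1 (0.29 and −0.29), 0.53 for Gpi1 (0.40 and −0.13), 0.36 for Tpi1 (0.35 and −0.00) and 0.35 for Gapdh (0.17 and −0.18). Each sign comes from 1 library against 1.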

How the results depend on the processing

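For 4OHT, limma called 3113 genes, 2991 with a pseudocount of 0.1, 2283 with no filter and 3107 with median-ratio scaling, but 233 with no replicate block and 3 to 245 with 1 library left out (3 without EtOH replicate 1). Of the 19 called members, 19, 13, 17 and 0 kept their call under these settings in turn, and 1 or fewer with a library left out. For genotype it called 1112 genes, 965 with the smaller pseudocount and 1794 with median-ratio scaling. It called 0 with no filter (3906 at an unadjusted p under 0.05), 0 with genotype alone (880) and 0 with any library left out (169 to 627). Of the 20 called members 19, 20, 0, 0 and 0 remained. Fits on 3 libraries hold only the term compared, so the other term moves their values, and the lone library of an arm is assumed to vary like the others.

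Signs turned, with no call in either fit, for P4ha1 with the smaller pseudocount (4OHT, 0.0090) and with median-ratio scaling for Gpi1 (−0.0907), Tpi1 (−0.0466) and Eno1 (−0.15) under 4OHT and for Egln1 (0.0498) and Arnt (0.0619) between genotypes. With a library left out, the log2 difference with 4OHT ran from −1.04 to 0.60 for Slc2a1, −0.25 to 0.95 for Hk2, −0.34 to 0.60 for Gpi1, −1.62 to 0.43 for Aldoc, −0.43 to 0.78 for Tpi1, −0.32 to 0.31 for Gapdh, −1.16 to 0.27 for Pgk1, −0.19 to 1.31 for Pgam1, −0.78 to 0.93 for Eno1, −1.89 to 0.15 for Pkm2, −0.31 to 1.05 for Ldha, −1.71 to 0.33 for Bnip3, −0.91 to 0.44 for Vegfa, −0.67 to 0.67 for P4ha1, −0.37 to 0.0956 for Higd1a, −1.04 to 1.002 for Ero1l and −2.29 to 0.22 for Ankrd37. Between genotypes it ran from −1.02 to 0.0234 for Hk2, −0.34 to 0.48 for Pfkm, −0.39 to 0.15 for Pfkfb4, −0.26 to 0.20 for Egln1, −3.34 to 0.76 for Egln3, −0.65 to 0.45 for Ndrg1 and −0.46 to 0.43 for Arnt. Depth limits P4ha2 and Epas1, with at most 19 reads a library.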
